A study of Mus musculus with 6 samples.

Results

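The interleukin 1 (IL-1) family genes and receptors described here are 10 genes, taken by symbol from a table of 56496 genes measured by RNA-seq in mouse bone marrow. They are the agonists Il1a, Il1b, Il18 and Il33, the receptor antagonist Il1rn, the soluble inhibitor Il18bp, and the receptor genes Il1r1, Il1r2, Il1rap and Il18rap. All 10 were found in the table. Of these, 9 averaged 1 TPM or more across the 6 libraries and were tested, and Il33 stayed under that level. TPM is transcript abundance scaled to the same total in each library, and the TPM of all transcripts of a gene were added up.

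The Onway group held 3 libraries (Onway 1, Onway 2 and Onway 3) from mice that received Onway by gavage, labelled day 14. The Control group held 3 libraries (Control 4, Control 5 and Control 6) from mice without Onway, labelled day 0. Mice of both groups were female BALB/c animals, marked WT in the labels, whose tumour, grown from the mouse mammary carcinoma line 4T1, had been removed by surgery. Onway and the labelled day go together and cannot be told apart. The extraction text of every sample opens with a culture in dexamethasone, isobutylmethylxanthine, insulin and serum, and whether the marrow cells went through it is not stated. Neither the composition of Onway nor the age of the mice is given in the sources used here. Whether every library stands for a separate mouse is not stated either, so the tests weigh differences against the spread of the libraries, which may be technical.

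IL-1 alpha and IL-1 beta are cytokines that act on the same receptor, IL-1R1, which signals after it recruits the accessory protein encoded by Il1rap. The antagonist encoded by Il1rn occupies that receptor without starting a signal, and IL-1R2, which lacks a signalling domain, binds the agonists as a decoy. IL-18 uses a receptor of its own with the accessory chain Il18rap and is held in check by the binding protein Il18bp, while IL-33 acts on the receptor encoded by Il1rl1. In marrow, myeloid cells are a known source of IL-1 beta, and IL-1 is known to drive myeloid output from blood stem cells. IL-1 beta and IL-18 are made as precursors and cut by caspase-1 in inflammasomes.

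Each library had 13354 to 14252 genes at 1 TPM or more, and its read depth is unknown because TPM does not carry it. Over all tested genes, 2.99% were called lower, 0.233% were called higher and 3.22% were called in either direction in Onway by limma, at a Benjamini-Hochberg adjusted p under 0.05. Neutrophil markers, the most abundant of the marrow marker lists other than haemoglobin, summed to between 106696 and 190317 TPM in Onway and between 95474 and 207905 TPM in Control, and none of the 14 tested was called. Haemoglobin transcripts took 13.4%, 9.38% and 33.9% of the TPM in Onway 1, Onway 2 and Onway 3, against 26.6%, 11.6% and 18.3% in Control 4, Control 5 and Control 6. Onway 3 and Control 4 thus held the highest shares of their groups.

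Il1a, Il1r1 and Il1rn set the groups apart, and Il1b did so only in some of its transcripts. Il1a and Il1r1 fell in Onway marrow. No member was called higher at the gene level. Il1rn was higher in every Onway library than in any Control library without passing the test, and Il1b covered a wide range in both groups. Of the 9 tested members, 2 were called lower and 0 were called higher, and the same 2 had an unadjusted p under 0.05. Beside all tested genes, of which 2.99% were called lower, the count rests on few genes. The median log2 fold change was 0.15 over the 9 tested members and 0.03 over all 14192 tested genes, and 5 of the 9 had a positive sign. In 2 of the 9 every Onway library was below every Control library, which held for 11.5% of all tested genes, and in 1 of the 9 every Onway library was above, which held for 6.95%.

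**Figure D1:**
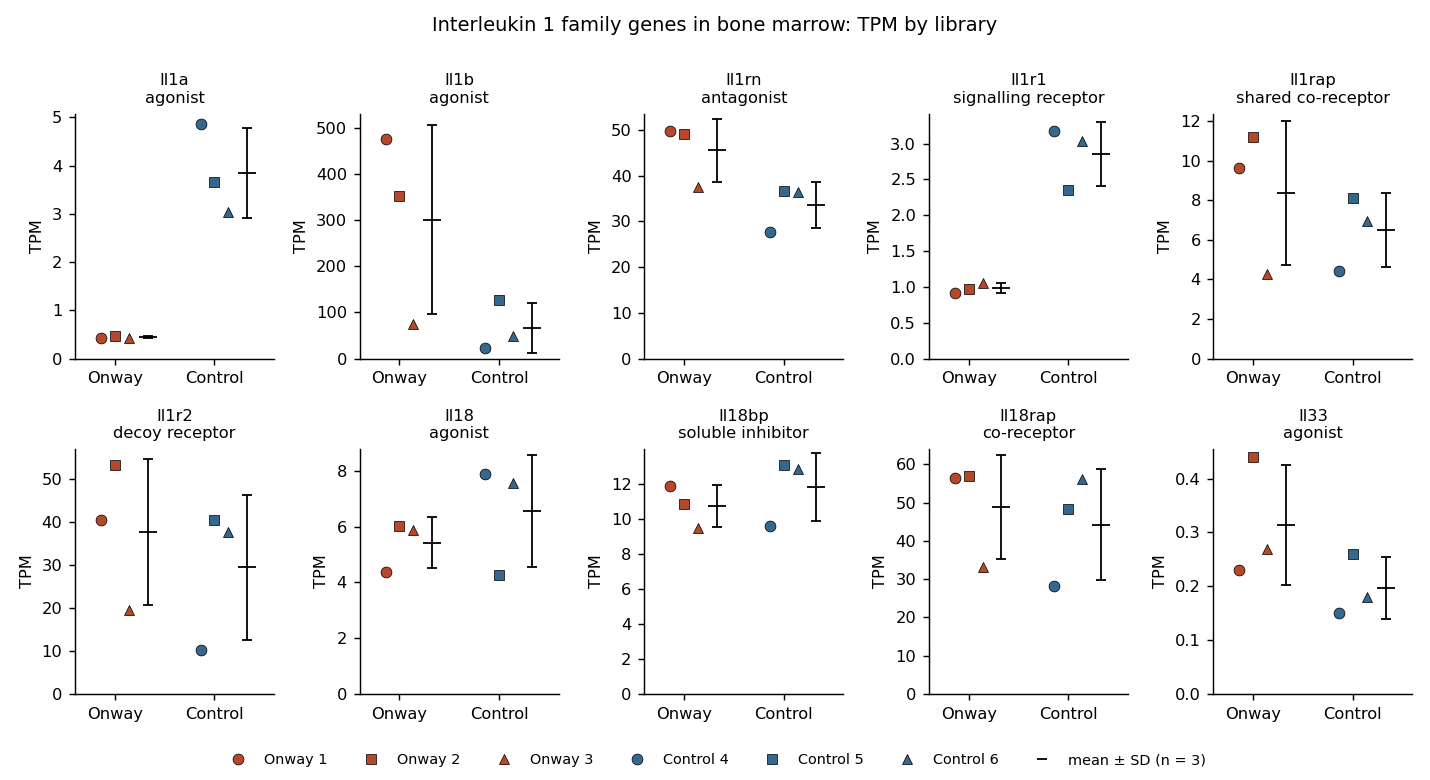
TPM of each of the 10 genes in each library, Onway on the left and Control on the right of every panel, with the mean ± SD (n = 3) as a bar beside the points. Il1a and Il1r1 lie lower in all Onway libraries, Il1rn lies higher in all of them, and the points of the other 7 genes overlap between the groups.

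Il1a, which encodes IL-1 alpha, an agonist that is active without cutting by caspase-1, lies on the minus strand of chromosome 2 at chr2:129299610-129309972 (GRCm38, ENSMUSG00000027399). Its single transcript, Il1a-201, stood at 0.42, 0.46 and 0.43 TPM in Onway 1, Onway 2 and Onway 3, against 4.86, 3.67 and 3.03 TPM in Control 4, Control 5 and Control 6. All Onway libraries were low and close to each other, and none came near the lowest Control library. The mean was 0.437 ± 0.0208 TPM in Onway and 3.85 ± 0.929 TPM in Control (SD, n = 3 each), 8.82-fold lower. On the log2(TPM + 1) scale, which understates changes near 1 TPM, Il1a fell by 1.74 (SE 0.22, limma adjusted p = 0.00524). The call was lost without Control 4 and Onway 3 (adjusted p = 0.0534). In the test over transcripts the adjusted p was 0.0139, and 0.0466 to 0.0685 with 1 library left out.

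Il1b, which encodes IL-1 beta, the agonist secreted by activated myeloid cells, lies 54.6 kb from Il1a on the same strand at chr2:129364570-129371139 (GRCm38, ENSMUSG00000027398). It had 474.80, 353.02 and 75.00 TPM in Onway 1, Onway 2 and Onway 3, against 22.13, 126.59 and 48.36 TPM in Control 4, Control 5 and Control 6. Onway 1 and Onway 2 were far above all Control libraries, while Onway 3 lay below Control 5, so the groups overlapped. The mean was 301 ± 205 TPM in Onway and 65.7 ± 54.3 TPM in Control (SD, n = 3 each). The log2 fold change of 2.15 had an SE of 0.94 and did not pass the test (limma adjusted p = 0.414).

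The region upstream of each of the neighbouring IL-1 genes is shown because Il1a and Il1b share a locus and a strand and had log2 fold changes of opposite sign. Each line gives the 120 bases before the start site from RefSeq (GRCm38.p6, minus strand, 5′ to 3′), at chr2:129309973-129310092 for Il1a and at chr2:129371140-129371259 for Il1b. Capitals mark matches to TATAAA, the TATA box, and to TGANTCA, the site type of AP-1 factors.
Il1a: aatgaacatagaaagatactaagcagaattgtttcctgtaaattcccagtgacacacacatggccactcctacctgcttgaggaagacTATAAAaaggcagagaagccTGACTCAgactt
Il1b: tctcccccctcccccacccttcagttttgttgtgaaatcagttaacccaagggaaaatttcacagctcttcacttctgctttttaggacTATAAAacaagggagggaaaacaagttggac
Both stretches hold a TATA box, whose first base is at −32 in Il1a and at −31 in Il1b. The AP-1 type match of Il1a begins at −12. Windows from 250 bases before to 50 after a start were searched on both strands for these letters and for an NF-kB type site (GGG, any 5 bases, then CC), and the matches marked here do not overlap each other. Of 32817 such windows in the RefSeq table, 7.81% held TGANTCA, 13.6% held TATAAA and 50.8% held the NF-kB type site. All 10 members matched a window, and TGANTCA was found in 2 of them (Il1a and Il1rn), the NF-kB type site in 3 (Il1r1, Il1rn and Il1rap) and TATAAA in 5 (Il1a, Il1b, Il1rn, Il18 and Il33). Some members have more than 1 window. Counted by window, as the shares are, TGANTCA was in 2 of 14, the NF-kB type site in 5 and TATAAA in 6. A match is a run of letters and not a measured binding site.

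The 3 main forms of Il1b other than the spliced one did not overlap between the groups, while the total of the gene did. The table divides nearly all of its TPM among the spliced coding transcript Il1b-201 of 1356 bases, the transcript Il1b-203 of 689 bases, annotated as retaining an intron, and 2 transcripts newly assembled by the authors, of 3226 and 5849 bases. A further short transcript, Il1b-202, was listed at 0 in all libraries but Control 5, where it had 0.04 TPM. The exon structure of the assembled transcripts was not analysed here; their lengths lie between the spliced length and the 6570 bases of the locus. In Il1b-203, intron 2 of the 7-exon gene remains, a stretch of 532 bases at chr2:129369752-129370283 (GRCm38, minus strand). The lines below, all 5′ to 3′, show the sequence at its edges, where capitals mark the first and the last bases of the intron, and the joined exons of the spliced form, where capitals mark the bases on either side of the junction.
Il1b exon 2 to intron 2: accttttgacagGTcagtgggtactggaga
Il1b intron 2 to exon 3: catctgttttcattacAGtgatgagaatga
Il1b exon 2 joined to exon 3: accttttgacaGTgatgagaatga
The first edge lies at chr2:129370266-129370295 and the second at chr2:129369740-129369769. Only transcripts that carry the first pair of lines hold the intron, and only spliced ones hold the third.

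The spliced transcript Il1b-201 had 303.14, 169.87 and 37.45 TPM in Onway 1, Onway 2 and Onway 3, against 18.96, 114.53 and 42.80 TPM in Control 4, Control 5 and Control 6. The groups overlapped, and the log2 fold change of 1.44 did not pass the test over all tested transcripts (SE 0.88, limma adjusted p = 0.618). The form that keeps intron 2, Il1b-203, set the groups apart, with 61.74, 62.81 and 12.27 TPM in Onway, against 1.08, 4.26 and 1.13 TPM in Control. All Onway libraries were above all Control libraries, which held for 7.86% of all tested transcripts (and the reverse for 8.26%), but the log2 fold change of 3.72 (SE 0.67) did not pass the test (limma adjusted p = 0.0620). The assembled transcript of 3226 bases had 85.76, 87.36 and 18.89 TPM in Onway, against 1.64, 6.41 and 3.34 TPM in Control (log2 fold change 3.60, SE 0.64, limma adjusted p = 0.0590). The longest form, the assembled transcript of 5849 bases, had 24.16, 32.98 and 6.39 TPM in Onway, against 0.45, 1.35 and 1.09 TPM in Control, and rose by 3.26 on the log2 scale (SE 0.56, limma adjusted p = 0.0490). These forms kept 1 order of libraries, highest in Onway 1 and Onway 2, lower in Onway 3 and lowest in Control. Leaving out any 1 library other than Onway 3 ended the call of the longest form (adjusted p from 0.127 to 0.163), as did no filter on low values (0.180) and a mean of at least 5 TPM (0.0580), and without Onway 3 all 3 forms passed (adjusted p = 0.0209 for the first pair and 0.0111 for the longest). Of the 52 transcripts of the 10 genes, 22 were tested, 1 was called higher and 1 was called lower (Il1a-201), beside 0.198% called higher, 1.02% called lower and 1.22% called in either direction among all 34807 tested transcripts.

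Added up, the forms other than the spliced one made 36.1%, 51.9% and 50.1% of the Il1b TPM in Onway 1, Onway 2 and Onway 3, against 14.3%, 9.49% and 11.5% in Control 4, Control 5 and Control 6. The mean share was 46.0% ± 8.61 in Onway and 11.8% ± 2.42 in Control (SD, n = 3 each). This measure was chosen after its values were seen and is given as a description. In Onway 3, where total Il1b was within the Control range, the share was close to that of Onway 2. Summed, these forms averaged 131 ± 80.9 TPM in Onway and 6.92 ± 4.58 TPM in Control, an 18.9-fold difference, while the spliced form averaged 170 ± 133 TPM in Onway and 58.8 ± 49.7 TPM in Control. With the annotated transcripts alone, Il1b-203 made 16.9%, 27.0% and 24.7% of the sum of itself and Il1b-201 in Onway, against 5.39%, 3.59% and 2.57% in Control. Estimates of this kind divide reads that overlapping transcripts share, and strand was not given in the sources used here, so reads from the opposite strand cannot be told apart.

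**Figure D2:**
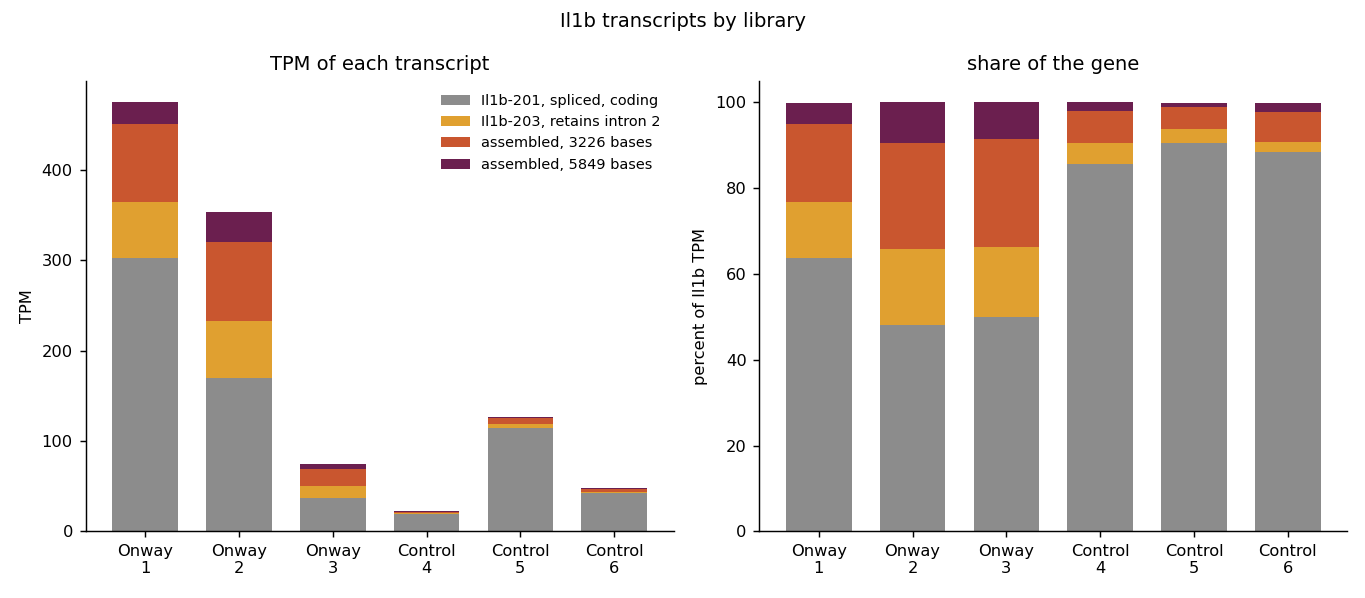
Il1b transcripts by library, as stacked TPM on the left and as percent of the gene's TPM on the right, Onway libraries before Control libraries. The grey spliced form made 48.1% to 63.9% of the gene in Onway and 85.7% to 90.5% in Control, whatever the height of the bar.

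Few genes shifted as far as Il1b towards transcripts annotated as retaining an intron. Such transcripts took 3.46%, 3.81% and 2.91% of all TPM in Onway 1, Onway 2 and Onway 3, against 3.01%, 3.02% and 3.15% in Control 4, Control 5 and Control 6, and the groups overlapped. In 3337 genes with both an intron-retaining and a coding transcript at a mean of at least 1 TPM, the median log2 change of their ratio, Onway minus Control, was 0.06, with the 5th percentile at −0.94 and the 95th at 1.12. The change for Il1b was 2.84, and 21 of the 3337 genes, Il1b among them, had one at least that high. The ratio was above all Control libraries in every Onway library for 330 of these genes (9.89%), and below all of them for 222. Il18rap, the other member with both kinds, changed by 0.28.

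Of the agonists outside the Il1a and Il1b locus, Il18 overlapped between the groups and Il33 was near 0. Il18 (chr9:50554827-50581840) had 4.38, 6.02 and 5.89 TPM in Onway 1, Onway 2 and Onway 3, against 7.88, 4.26 and 7.56 TPM in Control 4, Control 5 and Control 6. The groups overlapped (log2 fold change −0.21, SE 0.25, limma adjusted p = 0.783). Il33 (chr19:29925114-29960718), which encodes a nuclear alarmin of stromal and epithelial cells, stood between 0.23 and 0.44 TPM in Onway and between 0.15 and 0.26 TPM in Control, overlapped between the groups and was not tested.

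Il1rn, the antagonist gene (chr2:24336853-24351494, plus strand, ENSMUSG00000026981), had 49.83, 49.06 and 37.60 TPM in Onway 1, Onway 2 and Onway 3, against 27.73, 36.67 and 36.36 TPM in Control 4, Control 5 and Control 6. Every Onway library was above every Control library, with Onway 3 only just above Control 5. The log2 fold change was 0.43 (SE 0.19) and did not pass the test (limma adjusted p = 0.396; unadjusted p = 0.0580). Il1rn makes a secreted antagonist from a precursor with a signal peptide and shorter forms that stay in the cell, and the transcripts tell them apart. The precursor transcript Il1rn-201, which codes for 178 residues, had 21.48, 22.51 and 13.67 TPM in Onway, against 11.83, 16.55 and 17.33 TPM in Control, with overlap (log2 fold change 0.30, SE 0.25, limma adjusted p = 0.724). Il1rn-202, which codes for 162 residues without being annotated as a precursor, had 25.04, 21.64 and 20.96 TPM in Onway, against 13.53, 16.13 and 15.08 TPM in Control. All Onway libraries were above all Control libraries for this form, and it still did not pass (log2 fold change 0.56, SE 0.17, limma adjusted p = 0.283). Il1rn-204, whose start site is the most upstream of the gene and which codes for 159 residues, stayed between 2.68 and 3.01 TPM in Onway and between 1.77 and 3.54 TPM in Control. The precursor transcript made 41.8% ± 4.90 of the gene in Onway and 45.2% ± 2.501 in Control (SD, n = 3 each), and Il1rn-202 made 50.03% ± 5.82 in Onway and 44.8% ± 3.72 in Control.

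Il18bp, whose product binds IL-18 (chr7:102014885-102018690, minus strand), had 11.87, 10.81 and 9.46 TPM in Onway 1, Onway 2 and Onway 3, against 9.58, 13.04 and 12.84 TPM in Control 4, Control 5 and Control 6. The groups overlapped (log2 fold change −0.12, SE 0.18, limma adjusted p = 0.831). Its main coding transcripts were Il18bp-201 and Il18bp-203, both coding for 193 residues. Il18bp-201 had 5.30, 6.01 and 5.15 TPM in Onway and was listed at 0 in Control 4, against 5.51 and 5.16 TPM in Control 5 and Control 6, while Control 4 had the highest level of Il18bp-203, 7.09 TPM.

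Il1r1, the signalling receptor of both IL-1 agonists (chr1:40225080-40317257, plus strand, ENSMUSG00000026072), was the other member that fell. It had 0.92, 0.97 and 1.06 TPM in Onway 1, Onway 2 and Onway 3, against 3.18, 2.35 and 3.04 TPM in Control 4, Control 5 and Control 6. The Onway libraries lay close together and below all Control libraries. The mean was 0.983 ± 0.0709 TPM in Onway and 2.86 ± 0.444 TPM in Control (SD, n = 3 each), 2.90-fold lower, and on the log2(TPM + 1) scale Il1r1 fell by 0.95 (SE 0.20, limma adjusted p = 0.0494). The call sat at the threshold: it was lost when any 1 library was left out (adjusted p from 0.0629 to 0.195), without Control 4 and Onway 3 (0.153), with haemoglobin genes left out (0.0928) and with quantile normalization (0.0560).

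Il1r2, the decoy receptor gene, lies 99.8 kb upstream of Il1r1 on the same strand (chr1:40074079-40125231) and stood far above it. It had 40.46, 53.43 and 19.66 TPM in Onway 1, Onway 2 and Onway 3, against 10.15, 40.60 and 37.75 TPM in Control 4, Control 5 and Control 6. The lowest library of each group was the one with the highest haemoglobin share, and the groups overlapped (log2 fold change 0.46, SE 0.62, limma adjusted p = 0.813). Il1rap, the accessory protein gene (chr16:26581704-26730117), had 9.64, 11.19 and 4.25 TPM in Onway, against 4.45, 8.11 and 6.98 TPM in Control, low in the same libraries (log2 fold change 0.26, SE 0.36, limma adjusted p = 0.812). The membrane form Il1rap-201, of 570 residues, made 88.6% ± 3.03 of it in Onway and 87.5% ± 3.74 in Control. The short form Il1rap-206, of 360 residues, known as the soluble accessory protein, made 7.70% ± 2.502 in Onway and 8.71% ± 2.45 in Control (SD, n = 3 each). Il18rap, the accessory chain of the IL-18 receptor (chr1:40515362-40551705, 198.1 kb beyond Il1r1), had 56.36, 56.88 and 33.14 TPM in Onway, against 28.29, 48.38 and 56.19 TPM in Control, and overlapped as well (log2 fold change 0.15, SE 0.32, limma adjusted p = 0.892).

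The ratio of inhibitor to target within each library asks whether the balance of the pathway differed, whatever the scaling of the library. The antagonist Il1rn exceeded the agonist Il1a 96.0-, 87.8- and 71.1-fold in Onway 1, Onway 2 and Onway 3, against 5.61-, 9.75- and 11.7-fold in Control 4, Control 5 and Control 6. The ranges did not overlap, and the ratio was 9.80-fold higher in Onway. It mostly restates the fall of Il1a, whose mean was 8.82-fold lower, while that of Il1rn was 1.36-fold higher. An exact two-sided permutation test over the 20 assignments of the libraries gave p = 0.1, the smallest it can give, and 0.2 after Benjamini-Hochberg adjustment over the 4 ratios. The ratio of Il1rn to the agonist Il1b was 0.105, 0.139 and 0.502 in Onway, against 1.25, 0.290 and 0.752 in Control, and here the groups overlapped (log2 difference −1.74, exact permutation p = 0.2, adjusted p = 0.267). The antagonist thus stood below total Il1b in all Onway libraries and, of the Control libraries, above it in Control 4. Total Il1b includes the forms other than the spliced one. Against the spliced Il1b-201 alone, Il1rn was below it in Onway 1 and Onway 2. In Onway 3 they were level, at 37.60 TPM for Il1rn and 37.45 TPM for Il1b-201.

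The decoy Il1r2 exceeded the signalling receptor Il1r1 39.76-, 50.03- and 17.03-fold in Onway 1, Onway 2 and Onway 3, against 3.125-, 16.61- and 12.05-fold in Control 4, Control 5 and Control 6. The lowest Onway ratio was just above the highest Control ratio, and the ratio was 3.78-fold higher in Onway (exact permutation p = 0.1, adjusted p = 0.2). It largely restates the fall of Il1r1, whose mean was 2.90-fold lower, while that of Il1r2 was 1.28-fold higher. Il18bp exceeded Il18 2.672-, 1.783- and 1.596-fold in Onway, against 1.213-, 3.014- and 1.689-fold in Control (log2 difference 0.10, exact permutation p = 0.9). None of the 4 ratios passed an adjusted threshold of 0.05, which 3 against 3 libraries cannot reach.

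**Figure D3:**
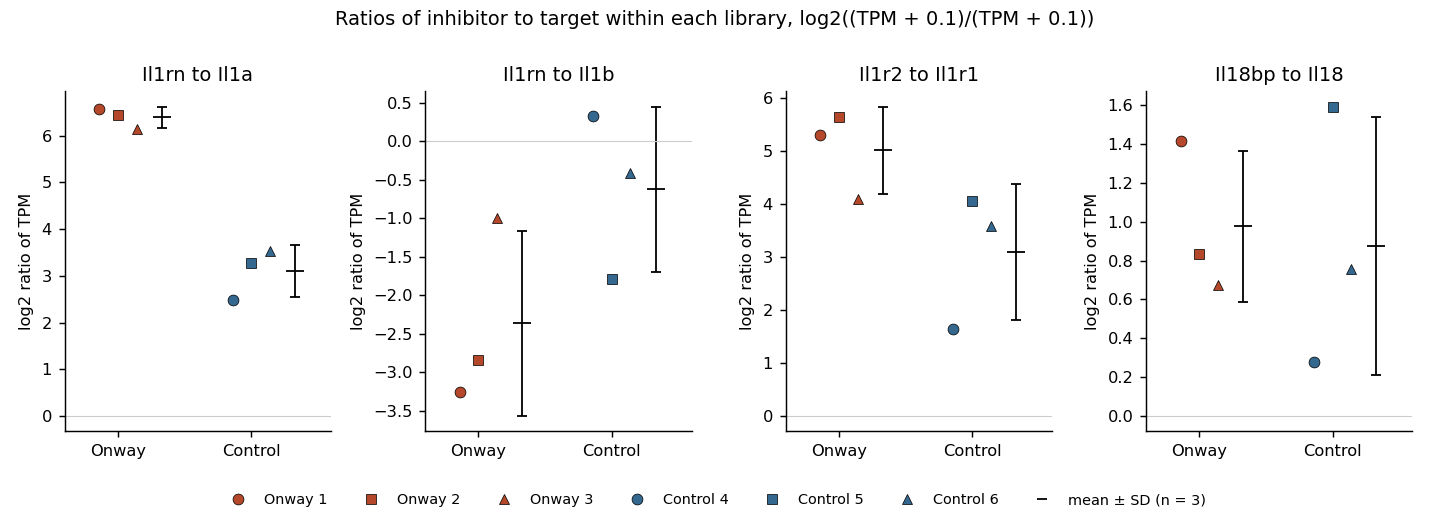
The log2 ratio of inhibitor to target in each library, with 0.1 TPM added to each gene, Onway on the left and Control on the right, and mean ± SD (n = 3) as bars. The ratios of Il1rn to Il1a and of Il1r2 to Il1r1 lie higher in all Onway libraries, and those of Il1rn to Il1b and of Il18bp to Il18 overlap.

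By level, Il1b led in both groups and Il33 was last. TPM is per length, so levels of genes can be set side by side. In Onway the means ran from Il1b at 301 TPM over Il18rap at 48.8, Il1rn at 45.5, Il1r2 at 37.9, Il18bp at 10.7, Il1rap at 8.36, Il18 at 5.43, Il1r1 at 0.983 and Il1a at 0.437 to Il33 at 0.313 TPM. Neighbours in this order overlapped in their ranges except Il1b with Il18rap, Il1r2 with Il18bp, Il18 with Il1r1 and Il1r1 with Il1a. In Control the means ran from Il1b at 65.7 TPM over Il18rap at 44.3, Il1rn at 33.6, Il1r2 at 29.5, Il18bp at 11.8, Il18 at 6.57, Il1rap at 6.51, Il1a at 3.85 and Il1r1 at 2.86 to Il33 at 0.197 TPM. There the neighbours overlapped except Il18bp with Il18 and Il1r1 with Il33. Il1a thus overlapped its neighbours Il1rap and Il1r1 in Control, and in Onway its range met that of Il33 but not that of Il1r1.

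The authors' group means offer a value beyond the 6 libraries. For none of the 158850 transcripts did a mean in the authors' deposited table depart from a mean of 4 values with 2 decimals, so a further library per group entered them, and what 4 times the mean leaves beyond the 3 libraries can be computed. It is computed from the authors' means and not listed by them, carries no error and entered no test. Values said to be left over, or given below for the authors' deposited table, are computed in this way. In the authors' deposited table it came to 1.53 TPM in Onway and 1.69 TPM in Control for Il1a, above the 3 Onway libraries and below the 3 Control libraries. Il1r1 was left with 1.22 TPM in Onway and 1.86 TPM in Control in the authors' deposited table, and Il1rn with 46.7 TPM in Onway and 30.2 TPM in Control. Il1b went the other way, with 86.8 TPM in Onway and 222 TPM in Control in the authors' deposited table, and forms other than the spliced one made 9.86% of it in Onway and 33.2% in Control. The Onway value of that share was thus within the range of the Control libraries, and the Control value was just below the Onway libraries.

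Other genes of the pathway are given by list, in the order of their roles. Of 9 symbols of further IL-1 family ligands, 5 were found, and the IL-36 gamma gene, listed under its older symbol Il1f9, was the 1 tested. It had 105.50, 108.14 and 42.09 TPM in Onway 1, Onway 2 and Onway 3, against 36.57, 94.51 and 75.25 TPM in Control 4, Control 5 and Control 6 (limma adjusted p = 0.857). Il1f5, Il1f6 and Il1f10 were listed at 0 in all 6 libraries. Of 6 further receptors, 4 were tested and 0 were called, with a median log2 fold change of −0.02. Il18r1, which binds IL-18, had a log2 fold change of 0.18 (adjusted p = 0.799), the IL-36 receptor gene Il1rl2 one of −0.14 (adjusted p = 0.844) and the IL-33 receptor gene Il1rl1 one of −0.08 (adjusted p = 0.922).

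Of 19 inflammasome and processing genes, 18 were tested and 0 were called, with a median of 0.09. Nlrp3, the sensor of the inflammasome that activates caspase-1, had 18.53, 14.76 and 9.56 TPM in Onway 1, Onway 2 and Onway 3, against 4.93, 6.90 and 7.52 TPM in Control 4, Control 5 and Control 6. All Onway libraries were above all Control libraries, and the log2 fold change of 1.01 (SE 0.27) did not pass (limma adjusted p = 0.119). Capn2, a calpain subunit of the protease family that cuts the IL-1 alpha precursor, had a log2 fold change of −0.67 (adjusted p = 0.237), and Elane, the neutrophil elastase, one of −0.91 (adjusted p = 0.259). For both of these, every Onway library was below every Control library. In 2 of the 19 genes Onway was all lower and in 1 all higher, beside 11.5% and 6.95% of all tested genes. Casp1 itself, at 24.9 ± 7.14 TPM in Onway and 22.7 ± 5.18 TPM in Control (SD, n = 3 each), overlapped between the groups (limma adjusted p = 0.896).

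Of 23 genes of receptor signalling, 22 were tested and 0 were called. Their median log2 fold change was 0.28, beside 0.03 over all tested genes, and 17 of the 22 had a positive sign. In 5 every Onway library was above every Control library, which held for 6.95% of all tested genes. In 0 every Onway library was below, which held for 11.5%. The smallest p values belonged to the kinase gene Map3k3, with 0.67 (adjusted p = 0.241), to the ubiquitin ligase gene Traf6, with 0.41 (adjusted p = 0.470), and to the adaptor gene Tifa, with 0.58 (adjusted p = 0.475). Myd88, the adaptor of the receptor, had 0.29 (adjusted p = 0.832).

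Genes that IL-1 is known to induce moved in both directions. Of 28, 21 were tested, 1 was called higher and 3 were called lower, with a median log2 fold change of 0.42. Over all tested genes, 0.233% were called higher and 2.99% lower, with a median of 0.03. Cxcl2, a neutrophil chemokine, rose to 468.36 TPM in Onway 1, 179.70 TPM in Onway 2 and 52.38 TPM in Onway 3, against 0.39, 1.82 and 4.14 TPM in Control 4, Control 5 and Control 6 (log2 fold change 5.93, SE 0.92, limma adjusted p = 0.0346). Its Onway libraries fell in the same order as those of Il1b. The call was lost when any 1 library other than Onway 3 was left out (adjusted p from 0.0594 to 0.181), without Control 4 and Onway 3 (0.0561), with a pseudocount of 0.1 (0.0603) and with a mean of at least 5 TPM (0.0632). In the authors' deposited table the value left over for Cxcl2 was 13.9 TPM in Onway and 236 TPM in Control, the opposite direction, as for Il1b.

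The 3 genes that fell were Mmp13, a collagenase, Vcam1, an adhesion molecule, and Cxcl5, a neutrophil chemokine. Mmp13 had 1.14, 2.36 and 0.52 TPM in Onway 1, Onway 2 and Onway 3, against 62.41, 32.97 and 32.56 TPM in Control 4, Control 5 and Control 6 (log2 fold change −4.23, SE 0.37, limma adjusted p = 0.00138). Vcam1 had 35.08, 34.04 and 33.10 TPM in Onway, against 95.70, 67.73 and 96.76 TPM in Control (limma adjusted p = 0.00903; 0.0542 without Onway 2 and 0.0608 without Control 4 and Onway 3). Cxcl5 had 0.22, 0.11 and 0.00 TPM in Onway, against 2.71, 1.19 and 1.80 TPM in Control (limma adjusted p = 0.0446; from 0.0230 to 0.160 over the alternatives). In the authors' deposited table the values left over were 2.28 TPM in Onway and 1.97 TPM in Control for Mmp13, 38.95 TPM in Onway and 36.27 TPM in Control for Vcam1, and 1.11 TPM in Onway and 0.80 TPM in Control for Cxcl5, each Control value below the 3 Control libraries. Vcam1 is also on the list of tissue macrophage markers, and Mmp13 is also on that of osteoblast and osteoclast markers. In 10 of the 28 genes every Onway library was above every Control library, and in 4 every Onway library was below. Over all tested genes these held for 6.95% and 11.5%, while the 28 include genes that were not tested, with Ccl2 among the 10. The 4 were Mmp13, Vcam1, Cxcl5 and Sele. Sele had 0.51, 0.59 and 1.16 TPM in Onway, against 3.22, 1.66 and 3.48 TPM in Control, and did not pass (limma adjusted p = 0.109). Ptgs2, the inducible cyclooxygenase, was among the 10. It had 9.13, 4.91 and 1.32 TPM in Onway, against 0.05, 0.06 and 0.18 TPM in Control (limma adjusted p = 0.0772). The NF-kB feedback inhibitors Tnfaip3 (log2 fold change 0.92, adjusted p = 0.0811) and Nfkbia (0.72, adjusted p = 0.179) and the cytokine Tnf (0.93, adjusted p = 0.248) were others of the 10 that did not pass. Ccl20 was listed at 0 in all 6 libraries.

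**Figure D4:**
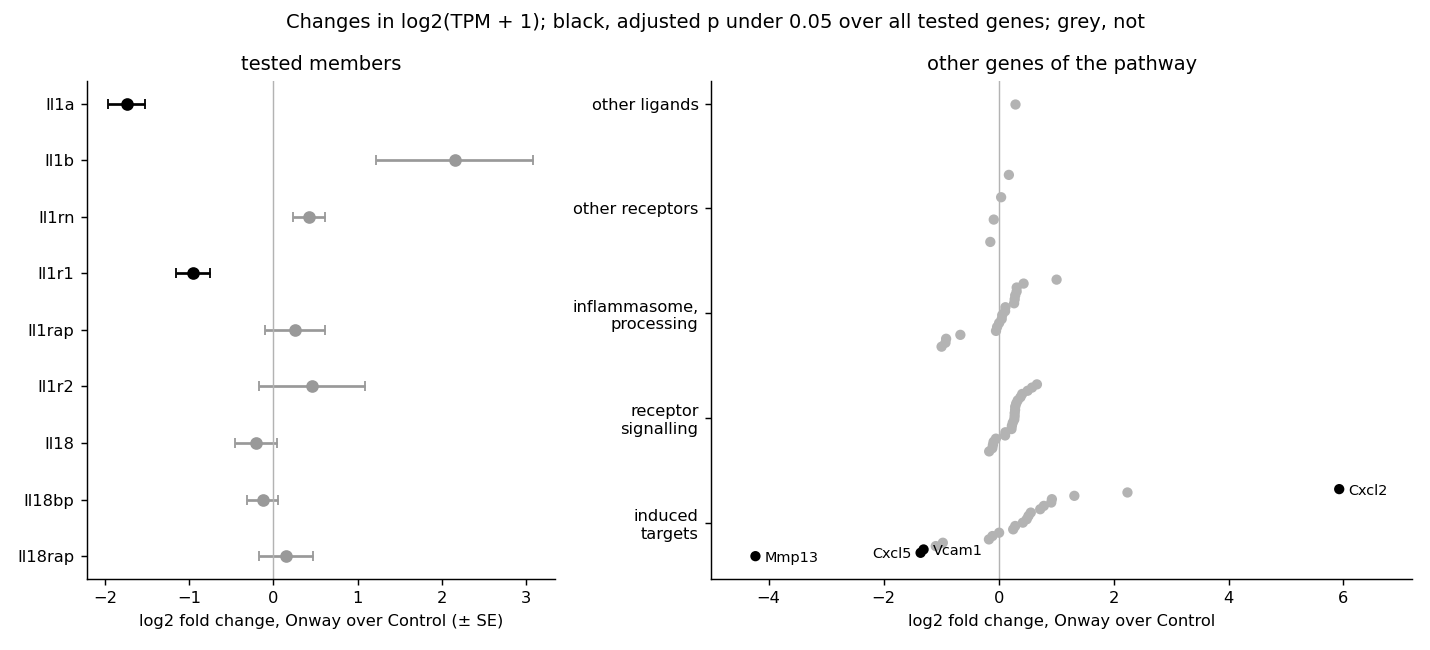
Log2 fold changes, Onway over Control, of the 9 tested members with their SE (left) and of the tested genes of the pathway lists (right), on log2(TPM + 1); black marks an adjusted p under 0.05. Il1a at −1.74 and Il1r1 at −0.95 are the black members, and Cxcl2 at 5.93 and Mmp13 at −4.23 are the farthest pathway genes.

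Markers of other cells moved along with Il1a and Il1r1. Over all tested genes, 2.99% were called lower. Stromal and fibroblast markers summed to between 32.8 and 49.4 TPM in Onway and between 450 and 1047 TPM in Control, and 12 of 13 tested were called lower. Endothelial markers summed to between 27.2 and 31.6 TPM in Onway and between 80.4 and 110 TPM in Control, and 9 of 12 tested were called lower. Both lists stand for cells that line and support the marrow. Megakaryocyte and platelet markers summed to between 116 and 193 TPM in Onway and between 2191 and 2501 TPM in Control, with 12 of 12 called lower. The same held for 10 of 10 tested osteoblast and osteoclast markers, at 58.2 to 75.9 TPM in Onway and 732 to 1464 TPM in Control, and for 9 of 10 skeletal muscle markers, at 17.3 to 24.8 TPM in Onway and 736 to 4758 TPM in Control. Tissue macrophage markers summed to between 289 and 309 TPM in Onway and between 400 and 674 TPM in Control, with 1 of 14 called lower. In all these sums every Onway library was below every Control library, but the values left over in the authors' deposited table did not repeat that distance. In the authors' deposited table they summed to 99.2 TPM in Onway and 112 TPM in Control for stroma and fibroblasts, and to 46.95 TPM in Onway and 58.73 TPM in Control for endothelium. For megakaryocytes and platelets they came to 1249 TPM in Onway and 1061 TPM in Control in the authors' deposited table, and for osteoblasts and osteoclasts to 68.8 TPM in Onway and 75.2 TPM in Control. Skeletal muscle was left with 20.7 TPM in Onway and 21.9 TPM in Control in the authors' deposited table, and tissue macrophages with 305.5 TPM in Onway and 287.7 TPM in Control. The Control value of each of these lists was thus below all 3 Control libraries. None of these markers was listed at 0 in all 6 libraries. In these bulk libraries, fewer cells of a type and less RNA per cell cannot be told apart. Nor can marrow cells be told from other tissue in the sample, such as muscle. The part of these cells and tissues in the levels of Il1a and Il1r1 was not tested.

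Markers of T and NK cells summed to between 138 and 156 TPM in Onway and between 161 and 248 TPM in Control, with 0 of 12 tested called and a median log2 fold change of 0.38, opposite in sign to the sums. Monocyte markers, added up, came to 4107 TPM in Onway 1, 4274 TPM in Onway 2 and 1980 TPM in Onway 3, against 1917, 1923 and 1630 TPM in Control 4, Control 5 and Control 6, with 0 of 12 called. These sums rest largely on 1 gene, Ear2. It had 2924.89, 2760.08 and 1362.28 TPM in Onway, against 1396.6, 1105.19 and 794.34 TPM in Control, and overlapped. All 12 markers had a positive sign, and 3 lay higher in every Onway library than in any Control library. The 18 immediate early genes, a class of fast stress and stimulus responders, summed to between 1133 and 2897 TPM in Onway and between 338 and 477 TPM in Control. Of these, 6 of 17 tested were called higher, beside 0.233% of all tested genes, and none of the 18 was listed at 0 in all libraries. Onway 3 was the lowest Onway library for both lists, as for Il1b. In the authors' deposited table the values left over for the immediate early genes summed to 626 TPM in Onway and 1330 TPM in Control, the opposite direction, as for Il1b and Cxcl2. Their part in the Il1b values was not tested. The haemoglobin share moved with the level of several members. Onway 3 and Control 4, which had the highest share of each group, had the lowest Il1b, Il1r2, Il1rap, Il18rap, Il1rn and Il18bp of their groups. This did not hold for Il1a, Il1r1, Il18 and Il33. The part of the haemoglobin share was not tested either. With haemoglobin genes left out and TPM rescaled, the limma adjusted p of Il1rn was 0.154 and that of Il1b 0.270. Epithelial and carcinoma markers stayed between 3.87 and 7.14 TPM in Onway and between 4.87 and 8.17 TPM in Control, with Krt5 and Krt14 at 0 in the Onway libraries.

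**Figure D5:**
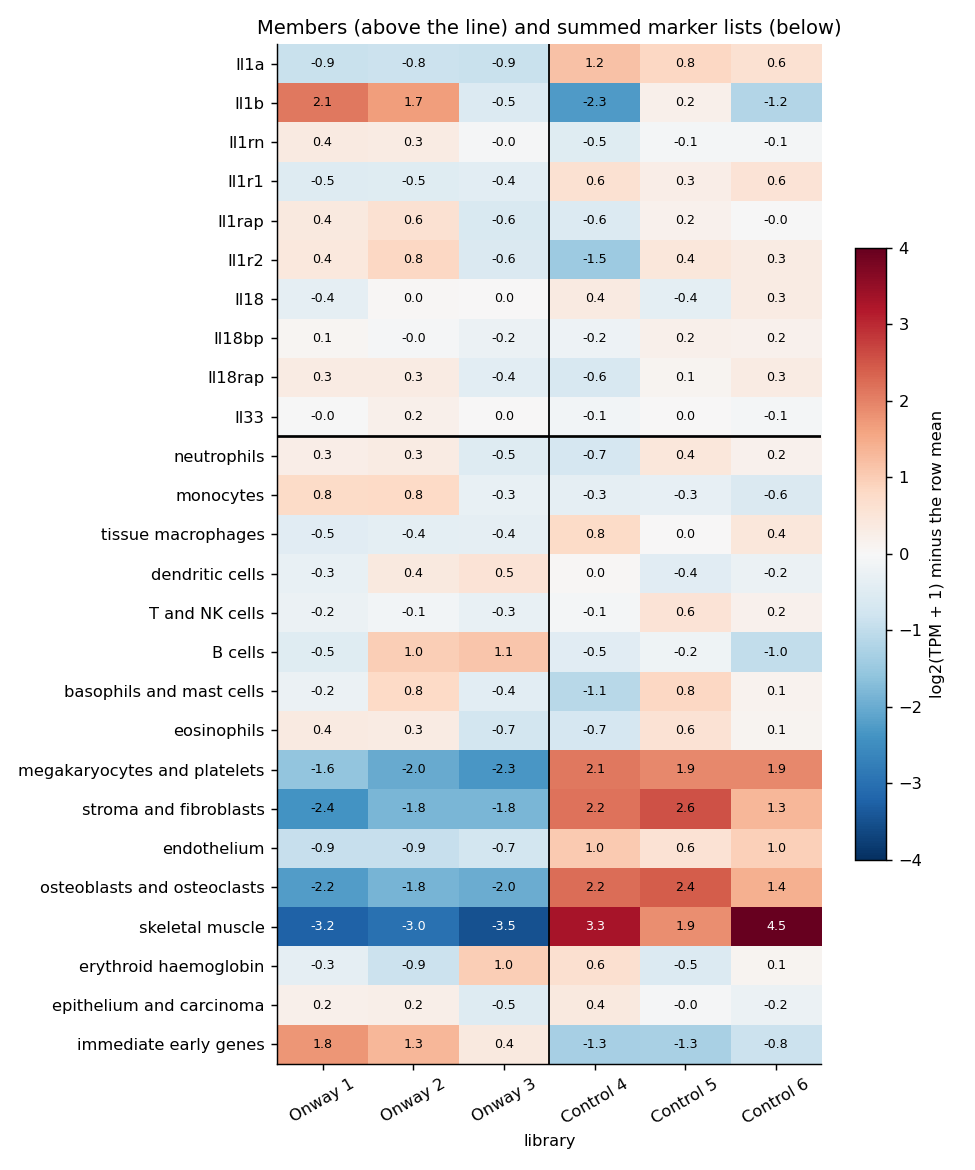
Log2(TPM + 1) minus the mean of its row, for the 10 genes above the line and for 16 summed marker lists below it, with Onway libraries left of Control libraries. Il1a and Il1r1 share the sign of the stromal, endothelial, bone, muscle and megakaryocyte lists in all 6 libraries.

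The genes nearest in profile were found by the root mean square difference of centred log2(TPM + 1) over the 6 libraries, among tested genes with a symbol. For Il1a they were Ackr4 (0.070), Cbln1 (0.090) and Bmp1 (0.095), where the median over all tested genes was 0.923. For Il1r1 they were Mmrn2 (0.031), Lzts2 (0.045) and Sla2 (0.058), with a median of 0.557. All 6 of these had every Onway library below every Control library, which follows from their choice by closeness to Il1a and Il1r1. For Il1b the distances were larger, with Cd14 first at 0.341, before Socs3 (0.510) and Osm (0.518), and a median of 1.51. Il1b itself also varied more. Its root mean square difference from its own mean was 1.529, against 0.884 for Il1a and 0.488 for Il1r1. Cd14, the monocyte co-receptor for bacterial lipopolysaccharide, had 198.77, 137.66 and 38.29 TPM in Onway 1, Onway 2 and Onway 3, against 12.22, 39.81 and 30.59 TPM in Control 4, Control 5 and Control 6.

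For Il1rn the nearest profiles were Sh3bp5 (0.037), Nod2 (0.041) and Limd2 (0.051), with a median of 0.340. For Il1r2 they were Cstdc4 (0.179), Stfa2l1 (0.180) and Clec4d (0.180), with a median of 0.784, and for Il1rap they were Milr1 (0.046), Rnpep (0.058) and Tet2 (0.062), with a median of 0.451. The nearest to Il18rap was Stk38 (0.059), to Il18 Rab4a (0.069) and to Il18bp Cops8 (0.030). These distances describe 6 libraries that share their groups and their scaling, and they carry no test.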

How the data were processed

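The authors deposited 1 table of TPM for 158850 transcripts in 6 libraries, with group means and, as another unit, a transcript length in bases. Per the labels' protocols, a SMARTer mRNA kit was used. The builds GRCm38 and mm10 stand in the submitters' processing notes; for aligner, assembler and quantifier the sources used here give no name. The Onway columns carry a prefix that the titles lack and were matched by their number. TPM keeps no read depth, so no counting interval is given.

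TPM was summed per gene. Genes and, separately, transcripts with a mean of at least 1 TPM were tested on log2(TPM + 1) with limma 3.58.1 (trend and robust moderation, R 4.3.3), all 6 libraries, no covariate, two-sided, Benjamini-Hochberg adjusted over all tested; the script was tested on simulated data. Ratios had 0.1 TPM added to each gene. Coordinates are from GENCODE M21, an annotation of GRCm38 in which 97.1% of the Ensembl transcripts were found. Residue counts are from its coding features, and promoters from RefSeq. Members, lists and motifs were chosen with earlier results of these data known. Named genes are the members and, per pathway list, those called and the 3 with the smallest p. Casp1, Myd88, Ptgs2, Tnfaip3, Nfkbia, Tnf, Sele, Krt5 and Krt14 were added by their role or after their values were seen. Alternatives were pseudocounts of 0.1 and 0.5, no filter, a mean of at least 5 TPM, haemoglobin genes left out, quantile normalization, no trend or robust moderation, and libraries left out.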

Additional observations from a re-analysis of the deposited data

How the results depend on the processing

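No paired analysis was possible because the groups share no replicate number. The direction of Il1a, Il1b, Il1rn, Il1r1, Il1rap, Il18 and Il18bp was the same in all alternatives. The count of 2 members called lower became 1 with no filter, with haemoglobin genes left out and with quantile normalization, 0 with a mean of at least 5 TPM (which leaves out both genes) and without Control 4 and Onway 3, and 1 with any 1 library left out. For member transcripts, the count lower went from 1 to 0 with no filter, with a mean of at least 5 TPM and without Control 4 and Onway 3 (0 to 1 with 1 library left out), and the count higher from 1 to 0 with no filter and with a mean of at least 5 TPM, to 3 with haemoglobin genes left out and to 2 without Control 4 and Onway 3 (0 to 3 with 1 library left out). The pathway lists had 3 genes lower, against 1 without Control 4 and Onway 3 (1 to 4 with 1 library left out), and 1 higher, against 2 with a pseudocount of 0.5, 0 with a mean of at least 5 TPM, 3 with haemoglobin genes left out, 2 with quantile normalization and 3 without Control 4 and Onway 3 (0 to 4 with 1 library left out). Over all genes, 424 lower became 183 with a mean of at least 5 TPM and 212 without Control 4 and Onway 3 (247 to 479 with 1 library left out), and 33 higher became 20 with a mean of at least 5 TPM, 56 with quantile normalization and 100 without Control 4 and Onway 3 (16 to 87 with 1 library left out). The cause was not tested where none is named.

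The sign turned only in values far from the threshold. The log2 ratio of Il18bp to Il18, 0.10, was −0.048 without Control 4 and Onway 3 and ran from −0.20 to 0.46 with 1 library left out. With 1 library left out, the log2 fold change ran from −0.16 (without Control 4) to 0.86 for Il1r2, from −0.14 (without Control 4) to 0.40 for Il18rap, from −0.061 (without Control 4) to 0.30 for Il1rn-204, from −0.30 to 0.06 (without Onway 3) for Il1rl2, from −0.10 (without Control 4) to 0.73 for Il1f9 and from −0.20 to 0.10 (without Control 4) for Il1rl1; without Control 4 and Onway 3 it was −0.036 for Il1rn-204, 0.07 for Il1rl2 and 0.18 for Il1rl1. Leaving out Onway 3 moved the median of all genes to 0.11, and leaving out Control 4 and Onway 3 moved it to 0.14, against 0.03 with all libraries. The difference in the Il1b share of forms other than the spliced one was 34.3 percentage points, from 31.3 to 39.2 with 1 library left out, and 19.0 with the annotated transcripts alone; these settings were chosen after seeing the data. Depth is unknown, so how far it limits genes near 1 TPM, such as Il1a and Il1r1 in Onway, could not be told.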
